A study of Mus musculus with 6 samples.

Results

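The genes of the autophagy machinery were followed in hearts of Tmbim1 knockout and Flox wild type mice after surgery that the labels call aortic binding (banding). A list of 38 gene symbols, chosen by function, defined the set. No threshold on a measured value entered the rule, but the list was drawn up with earlier results of these data known. Of these, 36 had at least 1 probe set under a single gene symbol, out of 18029 genes measured, and together they had 82 of the 38195 probe sets tested. Optn and Bnip3l were not analysed here. Where a gene had several probe sets, the brightest on average over the 6 arrays is called its main probe set and stands for it.

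The 6 arrays each measured RNA from the heart of 1 mouse. The wild type group (n = 3) carries the genotype label "Flox; wild type" and the other group (n = 3) the label "Tmbim1 KO", both on the C57BL/6 background. The age is given as 8 weeks, and whether this was the age at surgery or at dissection is not settled. Banding lasted 2 weeks, and 400 ng of total RNA was labelled with biotin. The labels describe 3 biological samples per genotype. They do not say how the deletion was made, which cells carry it or whether the groups were littermates, so it is a knockout by label only. Hearts without surgery were not analysed here, and every difference is one between genotypes in banded hearts. Values are log2 signals, differences are knockout minus wild type, and the brightness of a probe set does not rank one gene against another. Tmbim1, the check of the genotype labels, was at 8.58, 8.38 and 8.33 in wild type and at 7.53, 7.49 and 7.56 in knockout hearts. The groups were apart by -0.91 (SE 0.10), with a limma adjusted p of 0.00579. Its adjusted p missed the threshold without knockout replicate 2 (difference -0.89, adjusted p = 0.0512) and without knockout replicate 1 and wild type replicate 3 together (-0.96, adjusted p = 0.0607).

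Autophagy delivers cytoplasm and worn organelles to the lysosome inside a double-membraned vesicle, the autophagosome. The ULK1 kinase complex starts the process, and a lipid kinase complex built on PIK3C3 and Beclin 1 then marks the membrane from which the vesicle grows with lipid supplied by ATG2 and ATG9. A pair of ubiquitin-like conjugation reactions attaches proteins of the LC3 and GABARAP family to that membrane, where receptors such as p62 bring cargo. Cardiomyocytes rarely divide, and they rely on autophagy, and on its mitochondrial form, mitophagy, to renew organelles. TMBIM1 itself sits in the membranes of endosomes and of lysosomes, where autophagy ends.

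No member of the machinery passed the test. By limma, 0 of 36 members had an adjusted p under 0.05 at the main probe set, against 0.549% of all main probe sets, and 0 of the 82 member probe sets did, against 0.422% of all probe sets tested. At an unadjusted p under 0.05 there were 2 members, Pink1 (lower) and Atg3 (higher), or 5.56% against 11.5% of all main probe sets. This count was 4 without wild type replicate 2 or without knockout replicate 3, and 1 without wild type replicate 1, knockout replicate 1 or knockout replicate 2. With dimmer probe sets included, 10 of the 82 member probe sets, in 8 genes, had an unadjusted p under 0.05 by limma. The share over all probe sets at that cutoff is not given here. The low share of members thus holds for the main probe sets only. The 36 differences lay between -0.43 and 0.28 with a median of -0.09, where all main probe sets had a median of 0.00. Their middle range, from the lower to the upper quartile, was -0.15 to 0.07, beside -0.10 to 0.10 for all main probe sets. A negative sign was seen in 24 members and a positive one in 12. The share of negative signs was 66.7%, against 50.6% over all main probe sets. Without wild type replicate 2, 20 of 36 members were negative and the median was -0.03.

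The precision of the arrays sets what these values can show. For a member, the smallest difference that would have passed ranged from 0.51 to 1.02, with a median of 0.60 (1.52-fold), given its own SE and the largest unadjusted p that was called (0.000209). The 95% interval of the difference, taken gene by gene, stayed within 0.5 log2 units of 0 (1.41-fold) in 29 of the 36 members. In the other 7, namely Pink1, Ulk1, Atg10, Atg3, Bag3, Atg9a and Atg2a, it reached farther. Differences smaller than these limits could not be called with 3 arrays in each group.

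**Figure D1:**
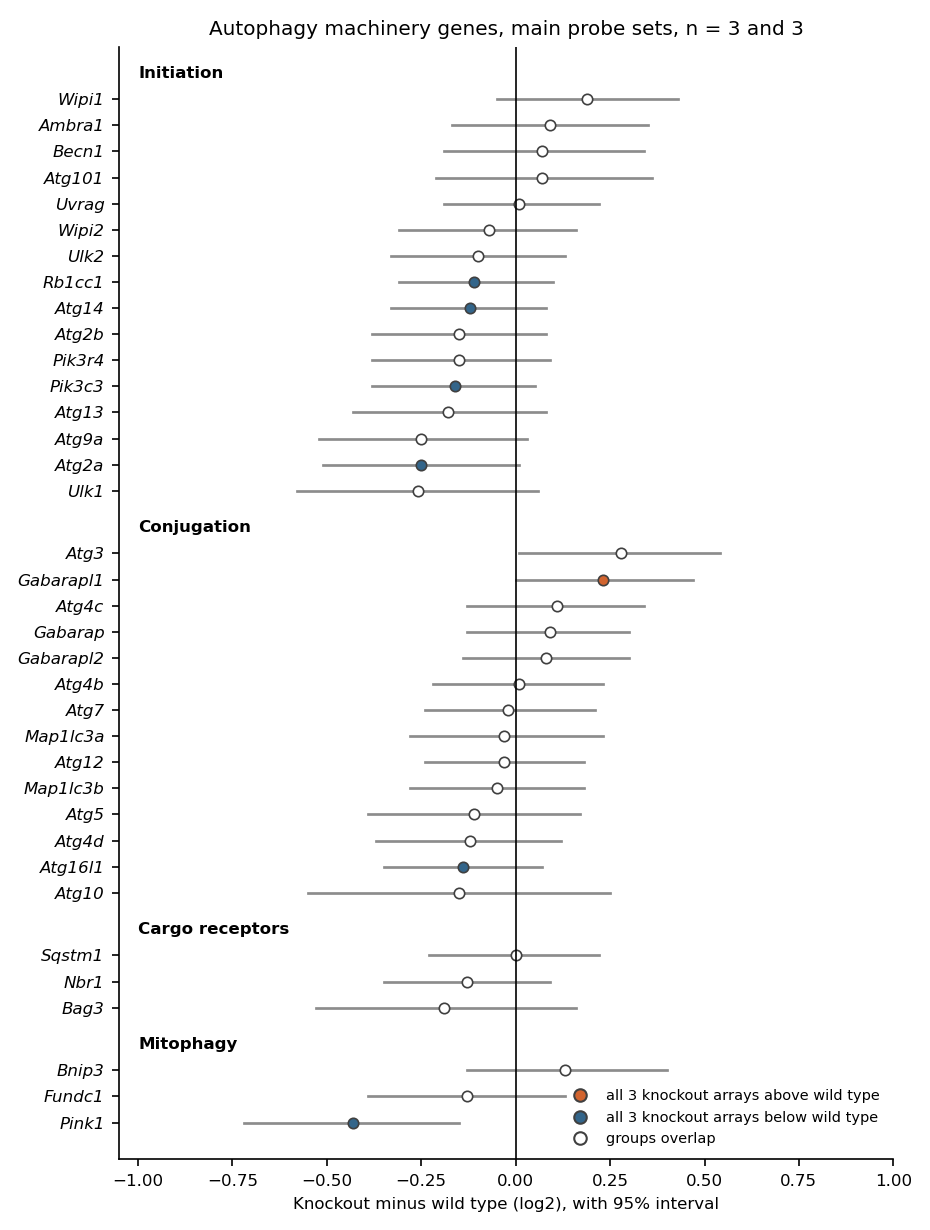
Difference of each of the 36 measured members on the log2 scale (horizontal axis, knockout minus wild type, main probe set), grouped by role on the vertical axis. Points are limma estimates from 3 and 3 arrays, lines their 95% intervals, and the fill marks members in which the knockout and wild type arrays do not overlap. The intervals of Pink1 and Atg3 exclude 0, and the other 34 hold it or touch it.

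The 3 knockout arrays lay wholly below the 3 wild type arrays in 6 members, Rb1cc1, Pik3c3, Atg14, Atg2a, Atg16l1 and Pink1, and wholly above them in 1, Gabarapl1. Over all main probe sets the knockout arrays lay wholly below in 9.38% and wholly above in 7.34%. Counting every probe set, 17 of the 82 had groups apart, 12 lower and 5 higher, against 15.2% of all probe sets in either direction.

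The initiation genes were mostly on the negative side, with 11 of 16 members negative, a median of -0.11 and 0 called by limma (0 with an unadjusted p under 0.05). The median deviation of these members from their own means was 0.11, 0.06 and -0.04 on the wild type arrays and -0.03, -0.05 and -0.02 on the knockout arrays, so wild type replicate 3 lay with the knockout arrays and wild type replicate 1 farthest from them. Among the 5 genes of the ULK1 complex, 4 were negative. Ulk1, the kinase that starts autophagosome formation, was at 7.90, 7.59 and 7.41 in wild type hearts and at 7.46, 7.16 and 7.51 in knockout hearts (probe set 1448370_at). The groups overlap, since wild type replicate 3 lay below knockout replicates 1 and 3. The difference was -0.26 (SE 0.14, adjusted p = 0.594). A dimmer probe set of Ulk1 was at -0.29 with the groups apart (adjusted p = 0.314).

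Rb1cc1 encodes FIP200, the scaffold of the same complex. Its main probe set 1418968_at was at 7.79, 7.82 and 7.81 in wild type and at 7.66, 7.77 and 7.68 in knockout hearts, apart by a small step of -0.11 (SE 0.09, adjusted p = 0.772). A dimmer probe set, 1449292_at, ran the other way at 0.34 with the groups apart (adjusted p = 0.313), and the dimmest was at 0.00. The probe sets of this gene thus disagree in sign, and the mean over them gave 0.08. Ulk2, the second ULK kinase, was at -0.10 at its main probe set. Its 4 probe sets lay between -0.24 and 0.11, and the lowest, 1417846_at, had the groups apart (adjusted p = 0.427). The regulatory subunit gene Atg13 was at -0.18, and Atg101, whose protein holds ATG13 in a stable form, at 0.07.

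The lipid kinase complex showed both signs, 3 members positive and 3 negative, with a median of -0.05. Pik3c3, the catalytic subunit that makes phosphatidylinositol 3-phosphate, was at 5.22, 5.33 and 5.11 in wild type and at 5.05, 5.01 and 5.11 in knockout hearts. Knockout replicate 3 and wild type replicate 3 were equal to 2 decimals, and the difference was -0.16 (SE 0.10, adjusted p = 0.634). Atg14, which steers this complex to autophagosome formation, was at 6.07, 6.03 and 6.09 against 5.95, 6.02 and 5.86, again apart, by -0.12 (SE 0.09, adjusted p = 0.735). The partner that directs the same kinase to endosomes, Uvrag, stood at 0.01. Becn1, encoding Beclin 1, was at 0.07 at its main probe set. All 4 probe sets of Becn1 were positive, from 0.07 to 0.17, and 2 of them had the groups apart (lowest adjusted p = 0.655). Pik3r4, the regulatory subunit, was at -0.15 and Ambra1, a Beclin 1 partner, at 0.09.

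Genes of lipid transfer and membrane supply were negative in 4 of 5 cases, with a median of -0.15. Atg9a, the lipid scramblase that seeds the growing membrane, was at 7.24, 7.16 and 7.06 in wild type and at 6.89, 6.69 and 7.13 in knockout hearts. Knockout replicate 3 lay within the wild type range and the other knockout arrays below it, for a difference of -0.25 (SE 0.12, adjusted p = 0.535). Atg2a, which carries lipid into that membrane, was at 6.32, 6.12 and 6.14 against 6.01, 5.74 and 6.08, with the groups apart by -0.25 (SE 0.12, adjusted p = 0.495). Knockout replicate 2 was the lowest array for Ulk1, Atg9a and Atg2a alike. Without it these 3 differences were -0.15, -0.14 and -0.15.

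Atg2b, the second lipid transfer gene, was at -0.15, and all 3 of its probe sets were negative (-0.29 to -0.01). The WIPI proteins bind the lipid that PIK3C3 makes. Wipi2 was at -0.07. Wipi1 was the most positive of the initiation genes at 0.19 (SE 0.11, adjusted p = 0.602), and 5 of its 6 probe sets were positive. At one of these, 1424917_a_at, the groups were apart with a difference of 0.29 (adjusted p = 0.306), and the lowest of the 6 stood at -0.09.

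**Figure D2:**
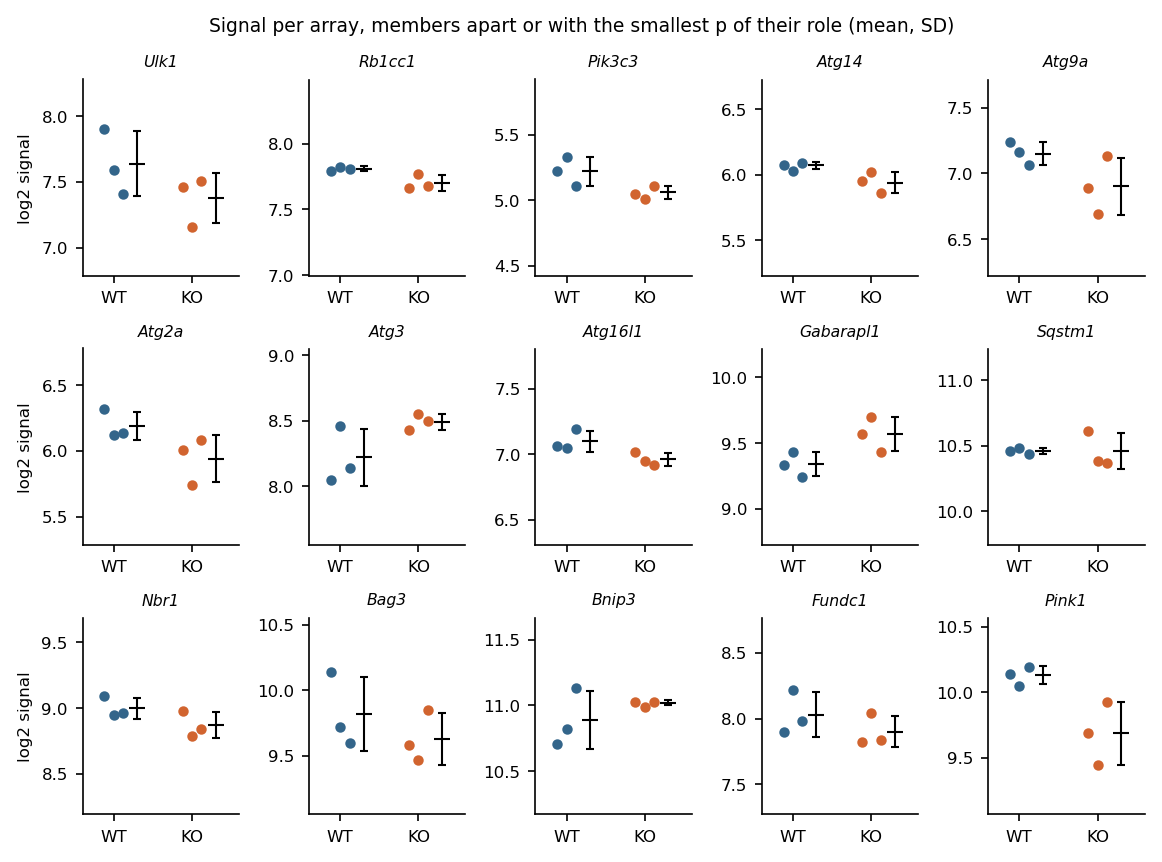
Signal on each array (points, log2 scale) for the 15 members described array by array, with wild type (WT) in blue and knockout (KO) in orange. Black bars give the mean and SD of 3 arrays, and each panel has its own vertical axis of at least 1.5 log2 units. Pink1 shows the widest gap between groups, and in most panels the groups overlap or nearly touch.

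The conjugation genes lay close to 0. Their median was -0.02, with 6 of 14 members positive and 0 called by limma. An unadjusted p under 0.05 was seen in 1 (7.14%, against 11.5% of all main probe sets). That member was Atg3, the E2-like enzyme that joins LC3 to phosphatidylethanolamine. Its wild type hearts were at 8.05, 8.46 and 8.14 and its knockout hearts at 8.43, 8.55 and 8.50 (probe set 1448993_at). Wild type replicate 2 overlapped the knockout arrays, and the difference was 0.28 (SE 0.12, adjusted p = 0.452). Without that array it was 0.40, and without wild type replicate 1 it was 0.19.

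Atg7, the E1-like enzyme that feeds both conjugation reactions, was at -0.02 with 4 probe sets between -0.07 and 0.02. The other E2-like enzyme gene, Atg10, was at -0.15 and was the most variable member, with an SD of 0.37 in wild type hearts, where replicate 2 was at 7.39 and the others at 6.72 and 6.78. The genes of the complex that places LC3 on the membrane were at -0.03 (Atg12), -0.11 (Atg5) and -0.14 (Atg16l1). Atg16l1 had the groups apart, at 7.06, 7.05 and 7.19 in wild type and 7.02, 6.95 and 6.92 in knockout hearts (SE 0.09, adjusted p = 0.688). The second, very dim probe set of Atg16l1 was at 0.18, and the mean over both was 0.02.

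ATG4 proteases trim LC3 and GABARAP proteins before conjugation and remove them afterwards. Atg4b was at 0.01, Atg4c at 0.11 and Atg4d at -0.12. Atg4c was the dimmest member, with a mean signal at the 47.4th percentile of all probe sets, so it was no brighter than the median probe set.

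Proteins of the ATG8 family coat the autophagosome and bind cargo receptors. The LC3 genes were at -0.03 (Map1lc3a) and -0.05 (Map1lc3b), while the GABARAP genes were at 0.09 (Gabarap), 0.23 (Gabarapl1) and 0.08 (Gabarapl2). Gabarapl1 was the member whose knockout arrays all lay above wild type, at 9.33, 9.43 and 9.24 against 9.57, 9.70 and 9.43, where wild type replicate 2 and knockout replicate 3 all but met. Its difference was 0.23 (SE 0.11, adjusted p = 0.485), and the dimmer probe set 1416418_at, at 0.20, overlapped. Map1lc3b, the most used marker of autophagosomes, had 4 probe sets, all negative. The brightest stood at -0.05 (SE 0.10, adjusted p = 0.926), 1415929_at at -0.30 (adjusted p = 0.319) and 1415928_a_at at -0.27 (adjusted p = 0.401), the latter pair with the groups apart. All 4 missed the threshold, and the size of the difference depended on which one was read. Whether LC3 protein was lipidated was not measured by these arrays.

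The measured cargo receptors did not pass (0 of 3 by limma, and 0 at an unadjusted p under 0.05), with a median of -0.13. Sqstm1 encodes p62, which binds ubiquitin on cargo and LC3 on the membrane. It was at 10.46, 10.48 and 10.44 in wild type and at 10.61, 10.38 and 10.37 in knockout hearts, a difference of 0.00 (SE 0.10, 95% interval -0.23 to 0.22, adjusted p = 0.998). Knockout replicate 1 lay above and the other knockout arrays below the wild type range. Nbr1, a receptor of similar build, was at 9.09, 8.95 and 8.96 against 8.98, 8.79 and 8.84, overlapping, with a difference of -0.13 (SE 0.10, adjusted p = 0.742).

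Bag3 is a co-chaperone that passes damaged sarcomere proteins from HSP70 chaperones to autophagy. It was at 10.14, 9.72 and 9.60 in wild type and at 9.58, 9.47 and 9.85 in knockout hearts. Wild type replicate 1 stood above every other array, the rest overlapped, and the difference was -0.19 (SE 0.15, adjusted p = 0.760). Without that array the difference was -0.03. Heat shock genes, among which are the HSP70 partners of BAG3, were mostly higher in the same knockout hearts, with 10 of 11 positive. The knockout arrays lay wholly above wild type in 6 of them, against 7.34% of all main probe sets. An unadjusted p under 0.05 by limma was seen in 6 (54.5%), against 11.5% of all main probe sets. Of 11 measured, 2 passed by limma, where 0.549% of all main probe sets did, and the median of the list was 0.27. Both rose, Hspa1b (2.33, adjusted p = 0.00579) and Hspa1a (2.20, adjusted p = 0.0429), near-identical copies whose signals may mix. Hspb1 (0.39), Dnaja1 (0.37), Dnajb1 (0.33) and Hsp90aa1 (0.27) had the knockout arrays above but did not pass. Hspa8 (0.08), Hspe1 (0.08), Cryab (0.01) and Hsph1 (0.21) overlapped between groups, and Hspd1 was at -0.20 with the knockout arrays below. Their summed signal (unlogged) was 21395 to 21513 in wild type and 23658 to 24620 in knockout hearts.

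Among the mitophagy genes 0 of 3 passed by limma, and Pink1 had the largest difference of all 36 members. Of the 3, only Pink1 had an unadjusted p under 0.05 (33.3%, against 11.5% of all main probe sets). Pink1 encodes a kinase that builds up on damaged mitochondria and marks them for removal. At its main probe set, 1441937_s_at, wild type hearts were at 10.14, 10.05 and 10.19 and knockout hearts at 9.69, 9.45 and 9.93. The groups were apart, with knockout replicate 2 lowest, and the difference was -0.43 (SE 0.13, 95% interval -0.72 to -0.15, adjusted p = 0.224). The second probe set, 1451148_at, was at 9.80, 9.52 and 9.64 against 9.23, 8.89 and 9.35, again apart, with a difference of -0.50 (SE 0.13, adjusted p = 0.188). These were the lowest adjusted p of any member probe set. Without knockout replicate 2 the differences were -0.32 and -0.36. The suffix of the first probe set marks probes that can match transcripts of more than 1 gene. Among the members, the main probe sets of Becn1, Pik3r4, Wipi1 and Gabarapl1 carry the same suffix.

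The remaining mitophagy genes overlapped between groups. Bnip3, a receptor in the outer mitochondrial membrane that hypoxia induces, was at 10.71, 10.82 and 11.13 in wild type and 11.03, 10.99 and 11.03 in knockout hearts, a difference of 0.13 (SE 0.12, adjusted p = 0.791). The knockout arrays lay close together inside the wild type range. Leaving out wild type replicate 1 gave 0.04, and leaving out wild type replicate 3 gave 0.25. Fundc1, another receptor of that membrane, was at 7.90, 8.22 and 7.98 against 7.82, 8.04 and 7.84, with a difference of -0.13 (SE 0.12, adjusted p = 0.780).

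Marker lists of heart cell types were read beside the members. All 14 measured cardiomyocyte markers were negative (median -0.13). In 10 of them (71.4%) the knockout arrays lay wholly below wild type, against 9.38% of all main probe sets. By limma 0 passed, and 2 had an unadjusted p under 0.05 (14.3% against 11.5% of all main probe sets). The summed signal of the 14 markers was 125268 to 129246 in wild type and 115598 to 119123 in knockout hearts. Several of these probe sets, such as Myl2 and Mb, lay at the top of the scale, where array maxima were 13.66 to 13.78, and differences there can be compressed. Atp2a2, the calcium pump gene, was at -0.14 at its main probe set and between -0.88 and -0.10 at its dimmer ones. The markers with the smallest p were Ryr2 (-0.41) and Ttn (-0.34), neither past the threshold. Fibroblast markers were positive in 9 of 10 cases, with a summed signal of 8853 to 15547 against 16701 to 18489. By limma 1 of them, Col3a1, rose (0.55, adjusted p = 0.0481), where 0.549% of all main probe sets passed. Col1a1 was at 0.40. An unadjusted p under 0.05 was seen in 5 fibroblast markers (50%, against 11.5% of all main probe sets). In 3 (30%) the knockout arrays lay wholly above wild type, against 7.34% of all main probe sets. Macrophage and monocyte markers were positive in 8 of 10 cases, with 0 called by limma. An unadjusted p under 0.05 was seen in 4 of them (40%), against 11.5% of all main probe sets. Endothelial markers were split, 4 positive and 4 negative, with a median of 0.00, and smooth muscle and pericyte markers had a median of 0.06. The genes with the smallest p in the remaining lists, which did not pass, were Lyve1 (0.79) and C1qa (0.42) for macrophages, Tagln (0.88) and Notch3 (0.23) for smooth muscle, and Pecam1 (-0.18) and Kdr (-0.21) for endothelium. For blood cells they were S100a9 (1.32, adjusted p = 0.0641) and S100a8 (0.95), Cd79a (-0.34) and Ncr1 (-0.35), and Alas2 (0.39) and Slc4a1 (0.19). Neutrophil markers were positive in 3 of 5 cases, and Cxcr2 (-0.02), Csf3r (-0.02) and Ngp (0.16) overlapped between groups. T, NK and B cell markers were negative in 6 of 8 cases, with a median of -0.19, and Cd3e (0.10) and Cd8a (0.05) were positive. Of 3 red blood cell markers, Hba-a1 was at 0.00. In bulk tissue, fewer cells of a type and less RNA per cell cannot be told apart. The part of these markers in the difference of Pink1, or of any other member, was not tested. The cardiomyocyte markers Myl2 and Tnnt2 were among the brightest probe sets of the arrays, which fits the heart label.

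A pair of arrays stands apart. Knockout replicate 1 alone carried the atrial genes Myl7 (12.86, other arrays 3.45 to 3.90) and Sln (12.17, other arrays 2.42 to 2.77). Nppa, the natriuretic peptide gene of the same list, rose on all 3 knockout arrays (13.78, 13.63 and 13.36 against 12.67, 12.67 and 11.85; difference 1.19, adjusted p = 0.0496). Its lowest value was on wild type replicate 3. The adjusted p of Nppa, like those of Col3a1 and Hspa1a, lay close under 0.05. Whether these calls hold with arrays left out is not given here. Wild type replicate 3 had the lowest fibroblast sum. Without both of these arrays 0 of 36 members passed, and the member median was -0.08. Pink1 was then at -0.40.

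Across members, no array carried a shift of the whole set. The median deviation of the 36 members from their own means was 0.02, 0.04 and 0.00 on the wild type arrays and -0.02 on each knockout array. Single deviations reached 0.50 for Atg10 on wild type replicate 2 and -0.46 for Pink1 on knockout replicate 2. Within groups the median SD of a member was 0.13 in wild type and 0.08 in knockout hearts. The median size of a difference, regardless of sign, was 0.12, beside 0.10 over all main probe sets, so a typical member differed between groups by about as much as it varied within them.

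**Figure D3:**
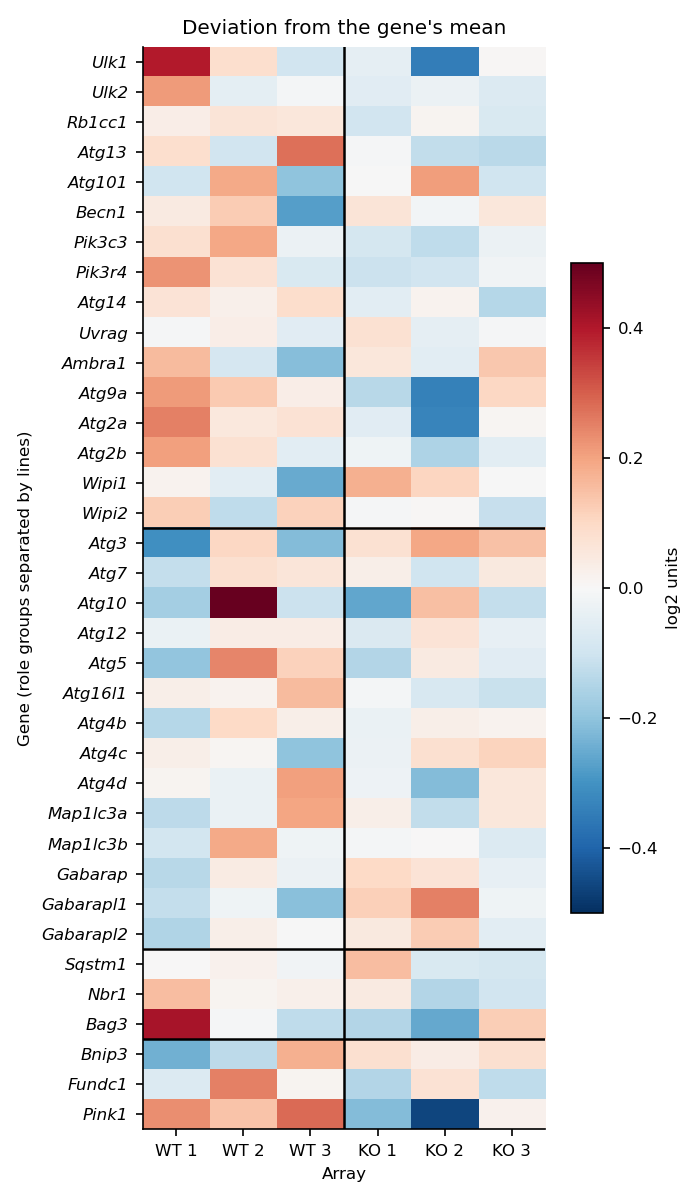
Deviation of each array from the mean of the gene over all 6 arrays (colour, log2 units, from -0.5 in blue to 0.5 in red) for the 36 members (rows, role groups separated by lines) in wild type (WT) and knockout (KO) hearts (columns). Wild type replicate 1 is the highest array for Ulk1 and Bag3, knockout replicate 2 the lowest for Pink1, Ulk1, Atg9a and Atg2a, and no column has a single colour.

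Of the members with more than 1 probe set, 25 in number, 13 had all their probe sets on one side of 0 and 12 had both signs. The largest spread between the probe sets of a gene was 0.45, in Rb1cc1. With all probe sets of a gene averaged, 0 of 36 members passed by limma (4 at an unadjusted p under 0.05). The share over all genes under that averaging is not given here.

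The wider pathway was read from a second list of 75 genes, of which 73 were measured. By limma 1 of 73 passed at the main probe set, where 0.549% of all main probe sets did. This gene was Depp1, and it rose. At an unadjusted p under 0.05 there were 13, of which 10 were lower and 3 higher, or 17.8% against 11.5% of all main probe sets. The median of the list was -0.03.

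Genes of nutrient sensing and transcriptional control held most of the larger differences, with 1 of 24 called by limma, against 0.549% of all main probe sets. An unadjusted p under 0.05 was seen in 8 (33.3%, against 11.5% of all main probe sets), 7 lower and 1 higher. In all, 16 of the 24 were negative, with a median of -0.13. Depp1, a gene induced by FOXO transcription factors whose protein acts on autophagy, was at 8.03, 7.72 and 7.53 in wild type and at 9.63, 8.99 and 8.88 in knockout hearts. Every knockout array lay above every wild type array, and the difference was 1.41 (SE 0.19, adjusted p = 0.0188), or 2.65-fold. A second probe set, 1433836_a_at, also passed at 1.19 (SE 0.17, adjusted p = 0.0211), but not without any one of the 3 wild type arrays or knockout replicate 2 (adjusted p 0.0591 to 0.0812). Knockout replicate 1, the array with atrial genes, was the highest at both, and without it the main difference was 1.18 (adjusted p = 0.0282). The call at the main probe set was lost without wild type replicate 2 (adjusted p = 0.0805), wild type replicate 3 (0.0699) or knockout replicate 2 (0.0836), and without both knockout replicate 1 and wild type replicate 3 (1.06, adjusted p = 0.0607).

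Zkscan3 encodes a zinc finger repressor of autophagy and lysosome genes. Its main probe set, 1415689_s_at, was at 7.93, 8.02 and 8.10 in wild type and at 7.63, 7.57 and 7.60 in knockout hearts, a difference of -0.42 (SE 0.09) that did not pass (adjusted p = 0.116). A dimmer probe set, 1437892_at, singled out after its values were seen, did pass. It fell by 1.11 (SE 0.10, adjusted p = 0.00216), from 7.56, 7.55 and 7.78 to 6.51, 6.56 and 6.51. The dimmest, 1422551_at, was at -0.59 (adjusted p = 0.0697). All 3 had the groups apart in the same direction, and they differed in size. The main one carries the suffix described for Pink1, and whether this bears on the sizes was not tested. The probe set that passed stayed past the threshold with any single array left out (adjusted p at most 0.0197) and without both arrays that stand apart (-1.02, adjusted p = 0.0337).

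The factors that switch on autophagy and lysosome genes did not pass. Mitf and Tsc2 come from the naming rule, and the rest of the list is given so that it is complete. Mitf, a relative of Tfeb, was at 8.24, 8.37 and 8.77 in wild type and 7.72, 7.83 and 7.86 in knockout hearts, apart by -0.65 (SE 0.14, adjusted p = 0.0950). Tfeb was at -0.17 and Tfe3 at 0.08. The FOXO factor gene Foxo3 was at -0.38 (adjusted p = 0.314) and Foxo1 at -0.22. Among regulators of the growth kinase MTOR, which restrains ULK1, the inhibitor gene Tsc2 was at 7.35, 7.06 and 7.15 against 6.85, 6.65 and 6.94, a difference of -0.38 (adjusted p = 0.256), Tsc1 at -0.07 and Rheb, the switch they act on, at 0.11. Mtor itself was at -0.16 and its partners at -0.23 (Rptor), -0.02 (Mlst8), 0.01 (Akt1s1) and 0.00 (Deptor). Subunits of AMPK, the energy sensor that activates ULK1, were at 0.03 (Prkaa1), -0.26 (Prkaa2), -0.27 (Prkab1), 0.39 (Prkab2) and -0.12 (Prkag1), none past the threshold. The upstream kinase gene Stk11 was at -0.14, and the stress-responsive MTOR inhibitors were at -0.25 (Sesn1), -0.05 (Sesn2) and 0.35 (Ddit4).

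**Figure D4:**
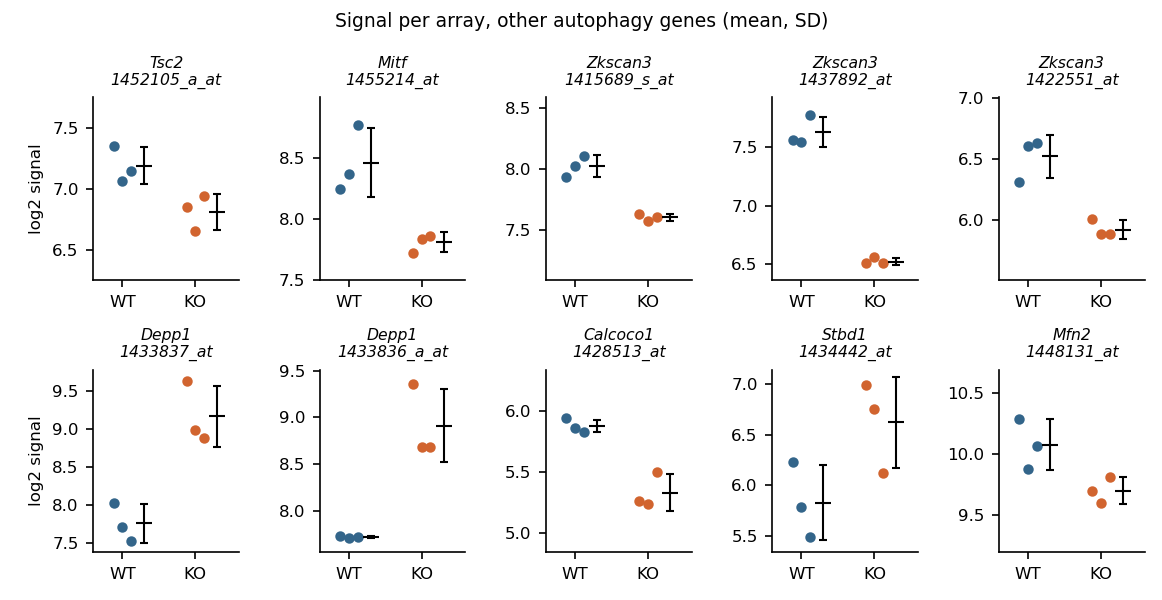
Signal on each array (points, log2 scale) for autophagy genes outside the core machinery, with the probe set named above each panel, wild type (WT) in blue and knockout (KO) in orange. Shown are Depp1, Mitf, Zkscan3, Calcoco1, Stbd1, Tsc2 and Mfn2. Probe sets no brighter than the median probe set are left out, such as the second one of Calcoco1, at 0.09. Black bars give the mean and SD of 3 arrays, and each panel has its own vertical axis. The 3 probe sets of Zkscan3 differ in the same direction by unequal amounts, and both of Depp1 are higher on every knockout array.

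Further machinery genes did not pass (0 of 19 by limma), with a median of 0.00. An unadjusted p under 0.05 was seen in 2 of them (10.5%, against 11.5% of all main probe sets). Vmp1, needed to form autophagosomes at the endoplasmic reticulum, was at 0.26, and Rubcn, an inhibitor of the lipid kinase complex, at -0.23. Vcp was at -0.19 and Epg5 at -0.18. Genes of fusion with the lysosome had 0 of 12 called by limma and 0 with an unadjusted p under 0.05, with a median of -0.04. The SNARE gene Stx17 was at -0.18, and the tethering complex genes Vps33a, Vps16 and Vps11 were at -0.23, -0.19 and -0.10.

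Further receptors and mitophagy genes had 0 of 18 called by limma. An unadjusted p under 0.05 was seen in 3 of them (16.7%, against 11.5% of all main probe sets). Calcoco1, a receptor for autophagy of the endoplasmic reticulum, was at 5.94, 5.86 and 5.83 in wild type and 5.26, 5.24 and 5.50 in knockout hearts, apart by -0.54 (SE 0.10, adjusted p = 0.0716). Its dim second probe set was at 0.09 and overlapped, and the mean of both gave -0.23. Stbd1, which links glycogen to autophagy, was at 0.79 (SE 0.23, adjusted p = 0.227), with knockout replicate 3 (6.12) inside the wild type range. Mfn2, the mitochondrial fusion protein that PINK1 phosphorylates, was at 10.29, 9.88 and 10.07 against 9.70, 9.60 and 9.81, apart by -0.37 (SE 0.12, adjusted p = 0.284). Retreg1, another receptor of the endoplasmic reticulum, was at -0.20.

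Promoters of the members were searched for the E-box CACGTG, the core of the element through which factors of the TFEB and MITF family act on autophagy and lysosome genes. The RefSeq table of the GRCm38.p6 build, with 250 bases before and 50 after each gene start, held 31 of the 38 members. CACGTG, which reads the same on both strands, was present in 5 of them, Atg3, Atg5, Atg7, Atg14 and Bnip3, and in 8.09% of all genes in the table. The longer palindrome TCACGTGA, which contains it, was present in 1 member, Atg3, and in 1.12% of all genes. The windows are shown so that the flanks of the motif (capitals) can be compared, each on the strand of its gene.
Atg3 (chr16:45158723-45158752, plus strand, first motif base 94 before the start): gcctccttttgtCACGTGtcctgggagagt
Atg3 (chr16:45158746-45158775, plus strand, first motif base 71 before the start): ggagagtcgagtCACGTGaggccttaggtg
Atg5 (chr10:44268313-44268342, plus strand, first motif base 14 before the start): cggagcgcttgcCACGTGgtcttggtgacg
Atg7 (chr6:114670952-114670981, plus strand, first motif base 132 before the start): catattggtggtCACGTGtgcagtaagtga
Atg14 (chr14:47568418-47568447, minus strand, first motif base 1 before the start): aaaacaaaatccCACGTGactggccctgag
Bnip3 (chr7:138909597-138909626, minus strand, first motif base 108 before the start): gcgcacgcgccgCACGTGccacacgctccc

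These 5 members had differences of 0.28 (Atg3), 0.13 (Bnip3), -0.02 (Atg7), -0.11 (Atg5) and -0.12 (Atg14), both signs and none past the threshold. A motif in a window is a description of its letters and shows no binding in these hearts.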

How the data were processed

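Hearts of 6 mice (3 per genotype) were measured on 1 Affymetrix array each. Each value the authors deposited is a log2 signal of 1 probe set. The tools listed per the submitters' processing notes are RMA and limma, and their versions are not given in the sources used here. Because RMA aligns the distributions of the arrays, a shift common to all genes is removed. Array medians were 4.24 to 4.28. Scans and detection calls were not analysed here, and no scan batch was tested.

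After 13 control probe sets were left out, 38195 were fitted with limma 3.58.1 (R 4.3.3; lmFit, eBayes; two-sided), with Benjamini-Hochberg adjustment over all of them at 0.05. Platform annotation gave 34325 probe sets 1 symbol, 62 several and 3808 none. The fit was also run on simulated data as a check of the code, and no result here rests on it. Members, lists and the pair of arrays left out together were chosen with earlier results of these data known. Every member was named. Values on all arrays were given for members with groups apart and for the 3 with the smallest p in each role. From each other autophagy list up to 4 genes with the smallest p were named, and from each marker list up to 2. Same-numbered arrays were not treated as pairs. Their deviations correlated at 0.06, 0.14 and 0.02, and those of unlike-numbered arrays at -0.14 to 0.08. With so few arrays these values cannot show that pairing was absent. The number of arrays limits precision.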

Additional observations from a re-analysis of the deposited data

How the results depend on the processing

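Under 16 alternatives 0 members passed. They were a replicate block, other variance priors, array weights, a second normalization, median centring, a filter at the 40th percentile, 1 probe set per gene, a mean over the probe sets of each gene, each array left out and 2 arrays left out together. The replicate block called 168 probe sets and 2 of the other autophagy genes (Depp1, and Stbd1 at 0.79, adjusted p = 0.0361). The mean of all probe sets also called 2 (Depp1, Zkscan3). The count of 161 probe sets was 102 with 1 probe set per gene, where fewer were tested. Single arrays left out gave 38 to 86 probe sets, 0 or 1 other autophagy gene, and a member median between -0.08 and -0.03, the latter without wild type replicate 2. Without knockout replicate 1 and wild type replicate 3 together there were 29 probe sets and 0 other autophagy genes.

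Of 36 members, 22 kept their sign throughout and 14 did not; the cause was not tested. With single arrays left out the differences ranged from -0.01 to 0.18 (Atg101), -0.05 to 0.15 (Becn1), -0.02 to 0.04 (Uvrag), -0.08 to 0.03 (Atg7), -0.27 to 0.06 (Atg10), -0.06 to 0.06 (Atg4b), -0.10 to 0.07 (Map1lc3a), -0.11 to 0.03 (Map1lc3b) and -0.08 to 0.04 (Sqstm1). With both arrays left out the sign turned in Becn1 (-0.06), Uvrag (-0.04), Ambra1 (0.00), Atg12 (0.01) and Map1lc3a (0.05). The mean of all probe sets turned Rb1cc1 (0.08), Atg5 (0.01), Atg16l1 (0.02) and Atg4b (-0.04), and array weights turned Sqstm1 (0.00). Depp1 lost its call in 4 of 16 alternatives, Tmbim1 in 2 of 16. Signals near the lower quartile of the arrays (2.72 to 2.78) carry little information on change.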
